A study of Mus musculus with 13 samples.

Results

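Chemokines and their receptors were examined in whole parametrial white adipose tissue (pmWAT) of female mice whose adipocytes had lost Lmna, the gene of lamin A and lamin C, and of their controls. The genes were chosen by symbol: protein-coding genes of GENCODE vM39 named Ccl, Cxcl, Ccr, Cxcr or Ackr with a number, together with Cx3cl1 and Cx3cr1, that had at least 30 counts summed over the 13 libraries. Of 63 genes with such symbols, 57 had a row in the count table of 33618 genes and 51 reached the count minimum: 30 ligands, 17 conventional receptors and 4 atypical receptors. The 6 genes below the minimum were Cxcl15, Ccl1, Ccl26, Cxcl17, Ccl27al and Cxcr1, with 2 to 16 counts in all, and the members just inside it were Cxcl11 with 32 and Ccl17 with 45. Ccl20, Ccl21b, Ccl21d, Ccl21e, Ccl21f and Ccl27b were not analysed here. A filter on low counts left 45 of the 51 members for testing. Untested were Ccl17, Ccl19, Ccr1l1, Ccr8, Cxcl3 and Cxcl11, and 4 of the tested members, Ccl4, Cxcl5, Ccr4 and Cxcr2, reached the filter's level in fewer than 6 fl/fl mice and in all 6 iADKO mice.

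The controls were 7 Lmna fl/fl mice, which carry floxed Lmna alleles and no Cre. The 6 Lmna iADKO mice carried the same floxed alleles and Adipoq-CreERT2, a tamoxifen-inducible Cre whose promoter is active in adipocytes. Both groups received tamoxifen in corn oil, 50 mg/kg intraperitoneally on 5 consecutive days at 12 to 14 weeks of age, and pmWAT was collected 2 weeks posttamoxifen. The libraries were made from whole tissue, so adipocytes, vessels, stroma and immune cells all contributed RNA, and fewer cells of a type and less RNA per cell cannot be told apart.

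Chemokines are small secreted proteins that set up gradients, and leukocytes move along them through G protein-coupled receptors on their surface. CC ligands act mainly on Ccr receptors and CXC ligands on Cxcr receptors, with many ligands shared between receptors. Atypical receptors bind chemokines without classical G protein signalling and act as scavengers or transporters. In adipose tissue, Ccl2 and its receptor Ccr2 are known for drawing monocytes from the blood into the macrophage pool.

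Between 18854223 and 19776491 reads were counted per library. Lmna itself, read over the whole gene, was at 74.7 to 98.5 CPM (TMM-normalized counts per 1000000 reads) in fl/fl and at 80.1 to 109 CPM in iADKO (log2 fold change 0.19 ± 0.079 SE; adjusted p = 0.0785), so this check did not show the deletion, and counts over the whole gene cannot separate the floxed exons or the adipocytes. The directions below therefore rest on the labels. All 7 adipocyte markers were lower in the libraries labelled iADKO, led by Retn, Cidec and Lep with log2 fold changes of -1.15, -1.11 and -1.10; their summed level was 9199 to 17540 CPM in fl/fl and 6283 to 10710 CPM in iADKO. Of 9 macrophage markers, 8 were higher, led by Cd68 (1.06), Adgre1 (0.82) and C1qb (0.76), and their summed level was 1401 to 2692 CPM in fl/fl and 1912 to 3274 CPM in iADKO. Of the progenitor, mesothelial and skeletal muscle markers, none was called by edgeR among 6, 5 and 5, and 2, 1 and 0 had an unadjusted p under 0.05. No marker in any of the 16 cell-type lists was at 0 in all mice. Of the fl/fl mice, numbers 5 and 7 had the highest macrophage scores (mean log2 CPM of the markers, 7.76 and 7.40), above iADKO mouse 6 at 7.29. These 3 mice also stood nearest to the other group for many of the members described below.

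Chemokine and receptor genes were compared between genotypes to ask which of them differed in the depot after adipocyte Lmna loss. In iADKO pmWAT, 14 members were higher and 0 were lower by edgeR's quasi-likelihood test at an adjusted p of 0.05. The 14 were 31.1% of the 45 tested and 27.5% of all 51 members. Over all 16753 genes tested, 14.1% were called higher and 16.3% lower, which is also the background for the calls in each role and marker list. By the unadjusted p, 26 members were under 0.05, beside 42.6% of all genes, and 2 of the 26, Cxcl9 and Ackr4, had the lower direction, beside 21.2% of all genes. DESeq2 called those 2 lower, against 19.1% of all genes by the same tool. The log2 fold change was above 0 for 39 of the 45 members, against 54.7% of all genes, and its median was 0.49, against 0.03 over all genes; fitted without the filter, all 51 members had a median of 0.43. For 4 of the 45 tested members, every iADKO mouse lay above every fl/fl mouse, which held for 2.71% of all genes tested. These were Cxcl10, Ccl22, Ccl2 and Ccr2, all among the 14.

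The macrophage score moved with these differences. With the score as a covariate, 0.68% of all genes were called higher, and among the members Cxcl10 and Ccl22 alone kept their call (log2 fold changes 1.37 and 1.46; adjusted p = 0.0214 and 0.0207 by edgeR). For the other 12 the log2 fold change in that fit was between 0.07 and 0.84, with adjusted p of 0.207 or more. Among these 12, Ccl5 was at 0.47 against 0.49 without the score, Ccr7 at 0.84 against 1.07 and Cxcr5 at 0.70 against 0.95, while Ccl6 was at 0.16 against 0.93 and Cxcl13 at 0.07 against 0.72. The part of macrophage number in the higher levels was not tested further. Left out 1 at a time, fl/fl mouse 5, fl/fl mouse 7 and iADKO mouse 6 gave 21, 24 and 17 members called higher, with all 14 among them each time; over all genes the share called higher was 19.9%, 14.5% and 15.9% in those fits. The library names carry animal numbers, which were sorted here into 4 series. The labels name no such series and no batch. Series 1 held only fl/fl mice and series 4 only iADKO mice. The fit with the series as a block therefore compared genotypes within series 2 (2 fl/fl and 2 iADKO mice) and series 3 (3 and 2). In that fit 4.68% of all genes were called higher and 11 of the 14 members kept their call. Ccr3, Ccr6 and Cxcl13 lost it, with log2 fold changes of 0.63, 0.94 and 0.73 and adjusted p of 0.0641, 0.0539 and 0.111 by edgeR.

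**Figure D1:**
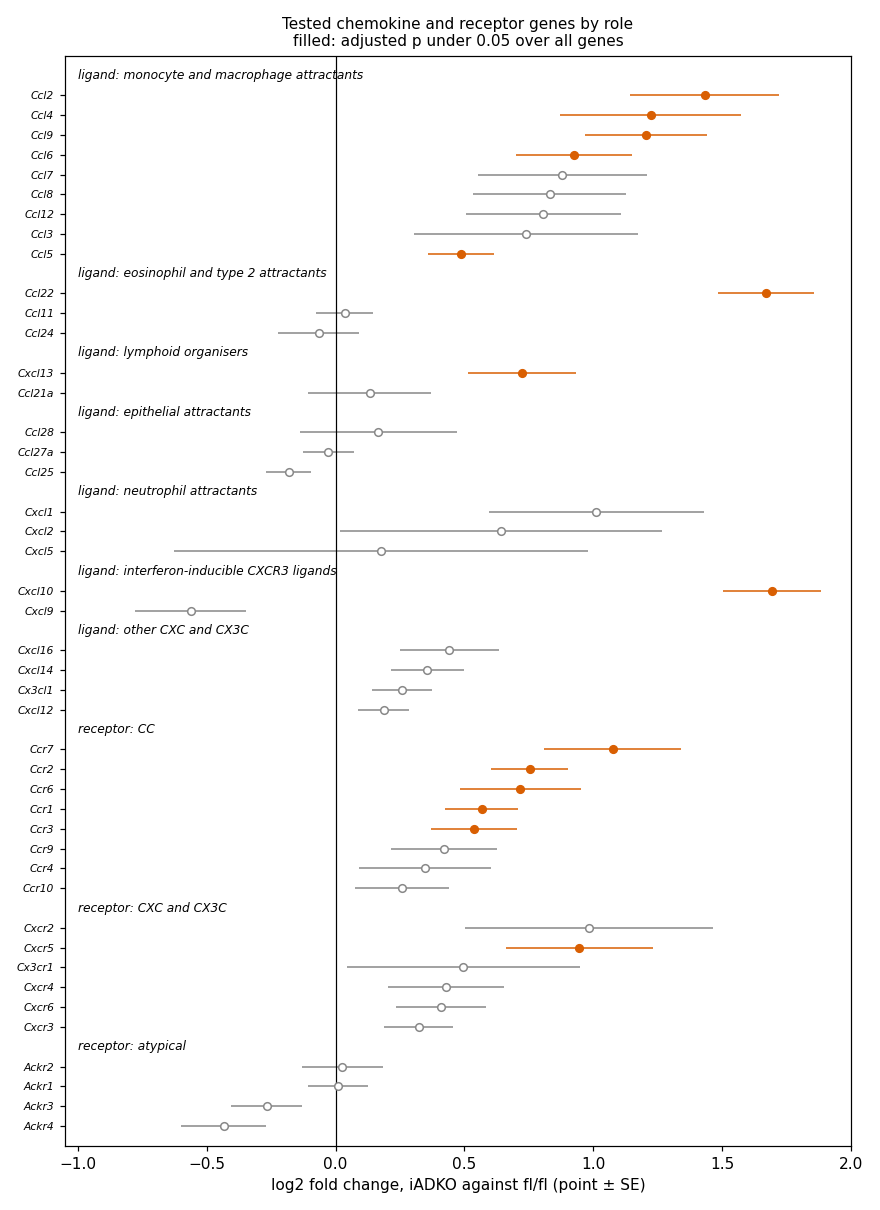
Log2 fold change of iADKO against fl/fl for the tested members plotted, in rows by role; points are estimates, bars are ± SE, and filled points passed an adjusted p of 0.05 over all genes. The filled points run from Ccl5 at 0.49 to Cxcl10 at 1.69, and Cxcl9 and Ackr4 have the lowest estimates at -0.56 and -0.43.

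Of the 9 monocyte and macrophage attractants, 5 rose and 0 fell, beside 14.1% and 16.3% of all genes, and their median log2 fold change was 0.88. As many of the 9 tested CC receptors rose. Ccl2, also known as MCP-1 and the main ligand of Ccr2, was at 2.58 to 8.14 CPM in fl/fl with a median of 3.35. In iADKO it was at 8.60 to 14.98 CPM with a median of 11.4. The groups did not overlap, although fl/fl mice 5 and 7, at 7.14 and 8.14 CPM, came close to iADKO mouse 5 at 8.60. Ccl2 rose by 1.43 ± 0.29 (SE) on the log2 scale (adjusted p = 0.00313). Ccl7 and Ccl12, the other Ccr2 ligands encoded beside Ccl2, had log2 fold changes of 0.88 ± 0.33 and 0.81 ± 0.30 and shared an adjusted p of 0.0557, so neither passed. Without fl/fl mouse 7, which had the highest control level of both (9.81 CPM of Ccl7 and 5.17 CPM of Ccl12), both were called higher, and DESeq2 called both with all mice.

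Ccl6 and Ccl9, a pair of neighbouring mouse ligands of Ccr1, carried much of the ligand RNA. Ccl6 was at 149 to 389 CPM in fl/fl with a median of 188 and at 316 to 519 CPM in iADKO with a median of 428. Mice 5 and 7 of the fl/fl group, at 389 and 335 CPM, reached above the lowest iADKO mouse, and the other 5 controls were at 188.5 CPM or less. Ccl6 rose by 0.93 ± 0.23 (adjusted p = 0.00855). Ccl9 was at 69.8 to 177 CPM in fl/fl with a median of 84.4 and at 172 to 291 CPM in iADKO with a median of 238. Only fl/fl mouse 5, at 177 CPM, exceeded an iADKO mouse, number 6 at 172 CPM. Ccl9 rose by 1.20 ± 0.24 (adjusted p = 0.00287). Together Ccl6 and Ccl9 made up 30.4% ± 5.85 (SD, n = 7) of the summed ligand CPM in fl/fl and 43.4% ± 4.07 (SD, n = 6) in iADKO.

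Ccl3, Ccl4 and Ccl5 are inflammatory ligands of the same cluster, and Ccl3 and Ccl5 bind Ccr1. Ccl4 was low, at 0.347 to 1.56 CPM in fl/fl with a median of 0.549 and 0.982 to 2.57 CPM in iADKO with a median of 1.58. The overlap came from fl/fl mice 5 and 7, at 1.16 and 1.56 CPM, and iADKO mouse 6. Ccl4 rose by 1.22 ± 0.35 (adjusted p = 0.0178), but it reached the filter's level in 3 of the 7 fl/fl mice and in all 6 iADKO mice, so it entered the test only through the group where it was high. Ccl5, a product of activated T and NK cells, was at 4.77 to 9.49 CPM in fl/fl with a median of 7.44 and 9.05 to 11.4 CPM in iADKO with a median of 10.7. A single control, mouse 6, reached above the lowest iADKO mouse. Ccl5 rose by 0.49 ± 0.13 (adjusted p = 0.0121), the smallest change among the 14. Ccl3 had a log2 fold change of 0.74 ± 0.44 and did not pass (adjusted p = 0.212); 35.6% of its transcript is overlapped on the opposite strand by Gm53692, and the strand setting of the counting is not given in the sources used here. Ccl8, the ligand with the next highest level per length after Ccl6, was at 20.6 to 67.7 CPM in fl/fl and 42.5 to 89.3 CPM in iADKO, with a log2 fold change of 0.83 ± 0.30 and an adjusted p of 0.0504 by edgeR and 0.0127 by DESeq2.

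**Figure D2:**
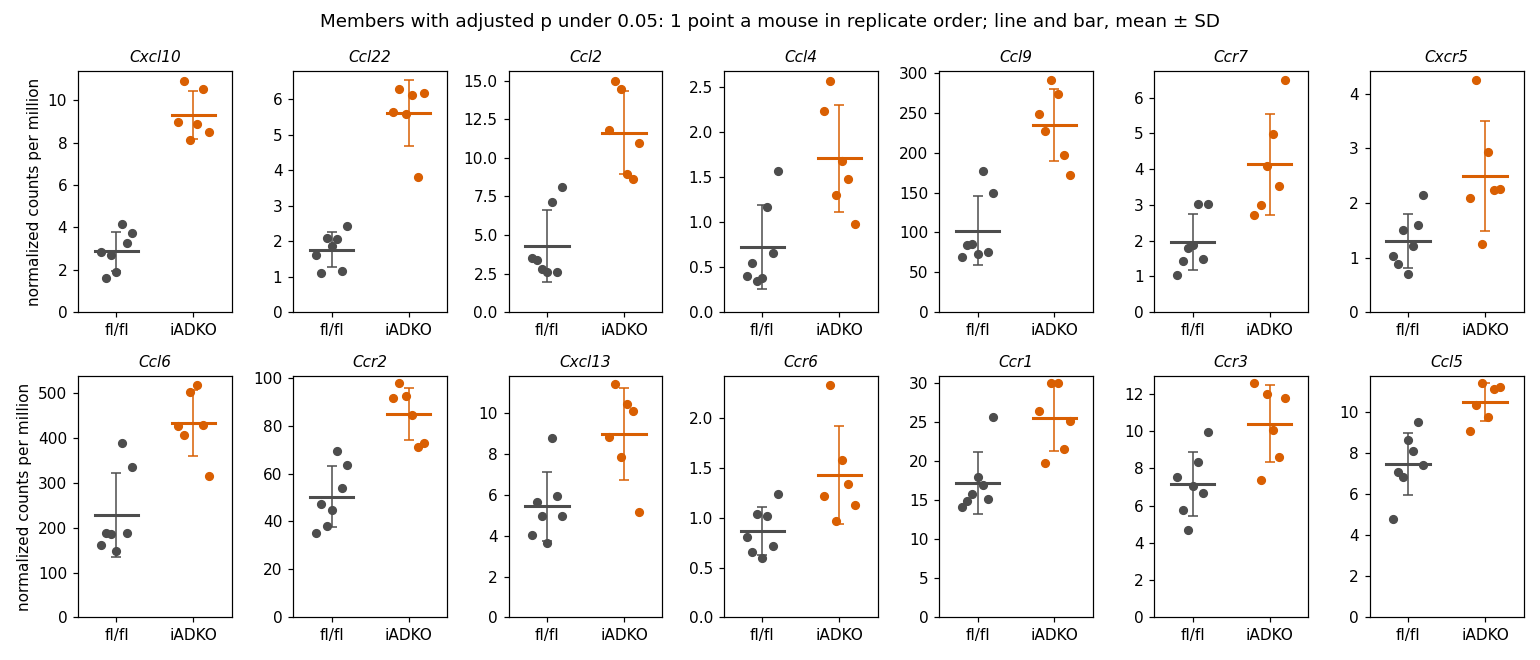
CPM of the 14 members with an adjusted p under 0.05, 1 panel a gene and 1 point a mouse; thick lines are group means and bars ± SD (fl/fl, n = 7; iADKO, n = 6). In Cxcl10, Ccl22, Ccl2 and Ccr2 the points of the groups do not overlap, and the 2 high fl/fl points in Ccl2, Ccl6 and Ccl9 are mice 5 and 7.

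Among the receptors of these ligands, Ccr2 and Ccr1 rose. Ccr2, the receptor of Ccl2, Ccl7 and Ccl12 on inflammatory monocytes, was at 35.2 to 69.3 CPM in fl/fl with a median of 47.2. In iADKO it was at 71.2 to 97.6 CPM with a median of 87.8, without overlap. Ccr2 rose by 0.75 ± 0.15 (adjusted p = 0.00274). Ccr1 was at 14.1 to 25.7 CPM in fl/fl with a median of 15.8 and 19.7 to 30.1 CPM in iADKO with a median of 25.8. Control mouse 7, at 25.7 CPM, stood apart from the other 6, which were at 18.0 CPM or less, and was the only control above an iADKO mouse. Ccr1 rose by 0.57 ± 0.14 (adjusted p = 0.00889). The monocyte markers Ly6c2 and Plac8 were higher by log2 fold changes of 0.76 and 0.61, 2 of 5 in their list, and the summed level of that list was 78.3 to 147 CPM in fl/fl and 92.4 to 153 CPM in iADKO.

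Of the interferon-inducible ligands of Cxcr3, the receptor of effector T and NK cells, 1 of 2 tested rose and 0 fell by edgeR. Cxcl10 (ENSMUSG00000034855, chr5:92494497-92496748 on GRCm39) and Cxcl9 (ENSMUSG00000029417, chr5:92469206-92475945) are neighbours on the minus strand. Cxcl10 was at 1.59 to 4.15 CPM in fl/fl with a median of 2.82 and 8.13 to 10.9 CPM in iADKO with a median of 8.91. No mouse of either group fell in the gap between 4.15 and 8.13 CPM. Cxcl10 rose by 1.69 ± 0.19 (adjusted p = 0.000162), the largest change among the members tested, and it passed under all 21 alternative fits. Art3 overlaps 12.1% of its transcript on the opposite strand. Cxcl9 was at 17.2 to 45.3 CPM in fl/fl with a median of 29.7 and 16.3 to 27.0 CPM in iADKO with a median of 19.6. Its groups overlapped, and its log2 fold change of -0.56 ± 0.21 did not pass (adjusted p = 0.0627 by edgeR, 0.0245 by DESeq2). With the series as a block, the adjusted p of Cxcl9 was 0.262 by edgeR. With the macrophage score as a covariate, its log2 fold change was 0.04 (adjusted p = 0.973 by edgeR). Cxcl11 had 32 counts in all and was not tested. Cxcr3 was at 4.43 to 8.70 CPM in fl/fl and 6.71 to 8.36 CPM in iADKO (0.32 ± 0.13; adjusted p = 0.0787).

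The ratio of Cxcl10 to Cxcl9 counts within a library does not depend on scaling between libraries. Its log2 value was -3.40 ± 0.676 (SD, n = 7) in fl/fl, from -4.01 to -2.05, and -1.13 ± 0.437 (SD, n = 6) in iADKO, from -1.67 to -0.58. The highest control was mouse 5, and the ranges did not overlap. The difference was 2.27 (exact two-sided permutation test over 1716 divisions of the mice, p = 0.00117, the smallest this test can give). This ratio was chosen after the values of both genes had been seen, and these are the tested members with the highest and lowest log2 fold changes. A small p-value was thus nearly fixed in advance and is no separate support for a difference. Cxcl9 had more counts than Cxcl10 in each of the 13 mice, but its transcript is longer (2896 against 1101 bases). Per kb of transcript, Cxcl9 was above Cxcl10 in fl/fl, at 10.5 ± 3.47 (SD, n = 7) against 2.61 ± 0.841 (SD, n = 7) CPM per kb, and in iADKO the values were 7.12 ± 1.49 (SD, n = 6) and 8.46 ± 1.03 (SD, n = 6).

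**Figure D3:**
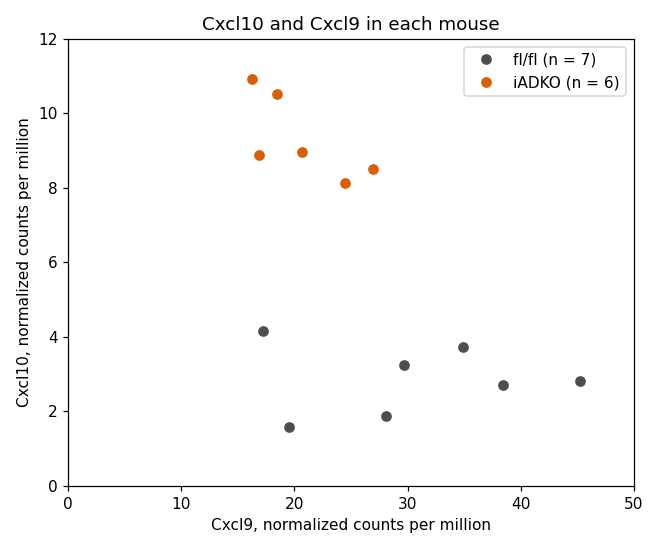
Cxcl10 against Cxcl9 in CPM, 1 point a mouse (fl/fl, n = 7; iADKO, n = 6). The iADKO points lie between 8.13 and 10.9 CPM of Cxcl10, above every fl/fl point, while their Cxcl9 values of 16.3 to 27.0 CPM fall inside or just under the fl/fl range of 17.2 to 45.3 CPM.

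The 250 bases before the annotated start of each gene are shown for the pair and for Ccl2. The pair are neighbours of which Cxcl10 alone was called by edgeR, and Ccl2 is the Ccr2 ligand that rose. These bases were read from GRCm39 at the starts of the GENCODE canonical transcripts, on the gene's strand. Capitals mark matches, on either strand, to a kappaB consensus, to the core of the interferon-stimulated response element (GAAANNGAA) or to the gamma-activated site (TTCNNNGAA); the motifs do not overlap in these windows. The windows are chr5:92496749-92496998 (minus strand) for Cxcl10, chr5:92475946-92476195 (minus strand) for Cxcl9 and chr11:81926147-81926396 (plus strand) for Ccl2.
Cxcl10: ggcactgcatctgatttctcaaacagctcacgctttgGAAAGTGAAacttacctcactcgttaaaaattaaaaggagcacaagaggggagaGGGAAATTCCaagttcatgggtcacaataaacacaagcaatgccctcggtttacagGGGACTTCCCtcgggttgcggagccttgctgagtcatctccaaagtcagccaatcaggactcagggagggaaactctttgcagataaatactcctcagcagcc
Cxcl9: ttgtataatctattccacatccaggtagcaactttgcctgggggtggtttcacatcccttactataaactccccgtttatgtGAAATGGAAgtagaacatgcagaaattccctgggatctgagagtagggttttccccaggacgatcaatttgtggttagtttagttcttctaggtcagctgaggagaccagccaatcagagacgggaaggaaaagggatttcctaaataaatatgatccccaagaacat
Ccl2: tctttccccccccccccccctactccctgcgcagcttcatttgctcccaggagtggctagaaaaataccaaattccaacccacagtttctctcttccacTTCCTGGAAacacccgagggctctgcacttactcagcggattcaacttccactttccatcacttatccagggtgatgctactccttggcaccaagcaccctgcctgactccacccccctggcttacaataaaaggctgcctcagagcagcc
Cxcl10 held 2 kappaB matches, at bases -159 to -150 and -103 to -94 from the start, and 1 interferon core at -213 to -205. Cxcl9 held 1 interferon core at -168 to -160 and no kappaB match, and Ccl2 held 1 gamma-activated site at -151 to -143. Over the 51 members, 10 windows held the kappaB letters, 9 the interferon core and 7 the gamma-activated site, against 4.23%, 7.55% and 7.70% of 21770 protein-coding promoters of the same length. Of the 14 members that rose, 5 held a kappaB match (Ccl5, Ccl9, Ccr3, Cxcl10 and Cxcr5), 3 an interferon core and 2 a gamma-activated site. The window of Ccl22 held none of the 3 motifs. A match describes letters and is not evidence of binding. Sites with other letters were not sought, so a window without a match is not shown to lack them.

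Among the eosinophil and type 2 attractants, 1 of 3 tested rose and 0 fell. That member was Ccl22 (ENSMUSG00000031779, chr8:95471226-95478327), a ligand of Ccr4 made by dendritic cells and macrophages that draws regulatory and type 2 T cells. Ccl22 was at 1.10 to 2.43 CPM in fl/fl with a median of 1.88 and 3.82 to 6.30 CPM in iADKO with a median of 5.89. Every iADKO mouse was above every control, and iADKO mouse 5, at 3.82 CPM, was well below the other 5 at 5.58 CPM or more. Ccl22 rose by 1.67 ± 0.19 (adjusted p = 0.000162) and passed under all 21 alternative fits. Its neighbour Ccl17, the other Ccr4 ligand, had 45 counts in all and was not tested, and Ccr4 itself was at 0.43 to 1.46 CPM in fl/fl and 0.73 to 1.21 CPM in iADKO (0.35 ± 0.26; adjusted p = 0.318). The eotaxins Ccl11 and Ccl24, ligands of Ccr3, had log2 fold changes of 0.04 ± 0.11 and -0.07 ± 0.16 (adjusted p = 0.830 and 0.774). Ccl11 was among the 5 most abundant ligands per length, at 47.0 to 64.3 CPM in fl/fl and 47.0 to 76.9 CPM in iADKO. Its direction turned when fl/fl mouse 5, iADKO mouse 3 or iADKO mouse 6 was left out.

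Ccr3, the eotaxin receptor of eosinophils, was at 4.68 to 9.97 CPM in fl/fl with a median of 7.03 and 7.37 to 12.6 CPM in iADKO with a median of 10.9. In all, 3 controls reached above the lowest iADKO mouse, number 2. Ccr3 rose by 0.54 ± 0.17 (adjusted p = 0.0265), a call lost without fl/fl mouse 2, iADKO mouse 1 or iADKO mouse 3, with adjusted p up to 0.0598. The eosinophil markers Prg2 and Siglecf were higher by 1.45 and 0.57 on the log2 scale, 2 of 3 tested, and that list summed to 5.75 to 11.6 CPM in fl/fl and 11.4 to 20.6 CPM in iADKO. Of 5 mast cell markers, 4 were higher, led by Cma1 (0.90), Mcpt4 (0.88) and Cpa3 (0.67). The remaining marker, Kit, was not called and had the lower direction (-0.59), with up to 88.9 CPM in fl/fl. The list summed to 53.0 to 116 CPM in fl/fl and 63.9 to 105 CPM in iADKO. The part of these cells in the Ccr3 result was not tested.

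Of the lymphoid organiser ligands, 1 of 2 tested, Cxcl13, rose. Cxcl13, which draws B cells through Cxcr5, was at 3.65 to 8.81 CPM in fl/fl with a median of 4.97 and 5.16 to 11.4 CPM in iADKO with a median of 9.49. Mice 2, 5 and 6 of the controls lay above iADKO mouse 6, and iADKO mice 3 and 6 lay below control mouse 5. Cxcl13 rose by 0.72 ± 0.21 (adjusted p = 0.0184). Cxcr5 was at 0.698 to 2.16 CPM in fl/fl with a median of 1.22 and 1.25 to 4.25 CPM in iADKO with a median of 2.25. Most of the overlap came from iADKO mouse 3, at 1.25 CPM. Cxcr5 rose by 0.95 ± 0.29 (adjusted p = 0.0230), but not without iADKO mouse 2, which had 4.25 CPM (adjusted p = 0.0642). B cell markers Cd79b and Cd79a were higher by 0.79 and 0.66, 2 of 5, and the list summed to 20.8 to 57.6 CPM in fl/fl and 38.0 to 84.2 CPM in iADKO.

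Ccr7, which guides dendritic cells and naive T cells toward lymphatics and lymph nodes, was at 1.04 to 3.04 CPM in fl/fl with a median of 1.79. In iADKO it was at 2.73 to 6.48 CPM with a median of 3.81. Mice 5 and 7 of the controls reached above the lowest iADKO mouse, and iADKO mouse 6 was the highest of all. Ccr7 rose by 1.07 ± 0.27 (adjusted p = 0.00852). Its ligand Ccl21a was at 19.7 to 54.3 CPM in fl/fl and 25.4 to 44.6 CPM in iADKO (0.13 ± 0.24; adjusted p = 0.699), and Ccl19 was not tested. Those 2 ligands are uncertain, since 99.8% and 100% of their transcripts match other genes at 95% identity or more. Among dendritic cell markers, Flt3 and Clec9a were higher (0.69 and 0.43) and Itgae was lower (-0.43), and the list summed to 52.4 to 77.5 CPM and 54.4 to 60.8 CPM.

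Ccr6, a receptor of B cells, Th17 cells and some dendritic cells, was at 0.591 to 1.24 CPM in fl/fl with a median of 0.805 and 0.962 to 2.33 CPM in iADKO with a median of 1.28. In this gene 3 controls lay above the lowest iADKO mouse. Ccr6 rose by 0.72 ± 0.23 (adjusted p = 0.0325), the least stable call: it was kept in 7 of the 13 fits that left out 1 mouse, with adjusted p up to 0.0843. Of its transcript, 72.8% is overlapped by Gm33799 on the opposite strand, and although the libraries were strand-specific, the strand setting of the counting is unknown, so the reads of the pair may not be separated. T cell markers were higher for 4 of 7, led by Cd4 (0.68), Cd3d (0.63) and Lat (0.44), and summed to 20.6 to 33.9 CPM in fl/fl and 36.9 to 42.6 CPM in iADKO. NK cell markers were higher for 2 of 5, Eomes (0.99) and Ncr1 (0.64), and summed to 3.91 to 8.39 CPM and 7.69 to 11.2 CPM. Cxcr6, a receptor of tissue-resident T and NK cells, was at 4.71 to 10.2 CPM in fl/fl and 9.41 to 12.7 CPM in iADKO (0.41 ± 0.18; adjusted p = 0.0896). Its ligand Cxcl16 differed by 0.44 ± 0.19 on the log2 scale (adjusted p = 0.0954), and 90.7% of its transcript lies opposite Med11 or Zmynd15.

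None of the 3 tested neutrophil attractants passed by edgeR, 1 had an unadjusted p under 0.05 (Cxcl1), and their spread among the controls was wide. Cxcl1, Cxcl2 and Cxcl5 are ligands of Cxcr2, the receptor that brings neutrophils into tissue. Cxcl2 was at 0.376 to 1.27 CPM in 5 of the fl/fl mice and at 5.06 and 8.73 CPM in mice 5 and 7, and at 3.30 to 4.91 CPM in iADKO. Its log2 fold change was 0.64 ± 0.63 (adjusted p = 0.456). Cxcl5 ran from 0.289 to 8.51 CPM in fl/fl and from 0.722 to 5.45 CPM in iADKO (0.18 ± 0.80; adjusted p = 0.884), with fl/fl mice 5 and 7 again highest. Cxcl1 differed by 1.01 ± 0.42 on the log2 scale (adjusted p = 0.0804) and was called higher by DESeq2. Cxcr2 was at 0.376 to 4.15 CPM in fl/fl and 1.64 to 5.30 CPM in iADKO (0.98 ± 0.48; adjusted p = 0.135). Neutrophil markers Mmp8 and Retnlg were higher by 1.75 and 1.28, 2 of 5, in a list that summed to 18.3 to 181 CPM and 73.1 to 278 CPM.

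**Figure D4:**
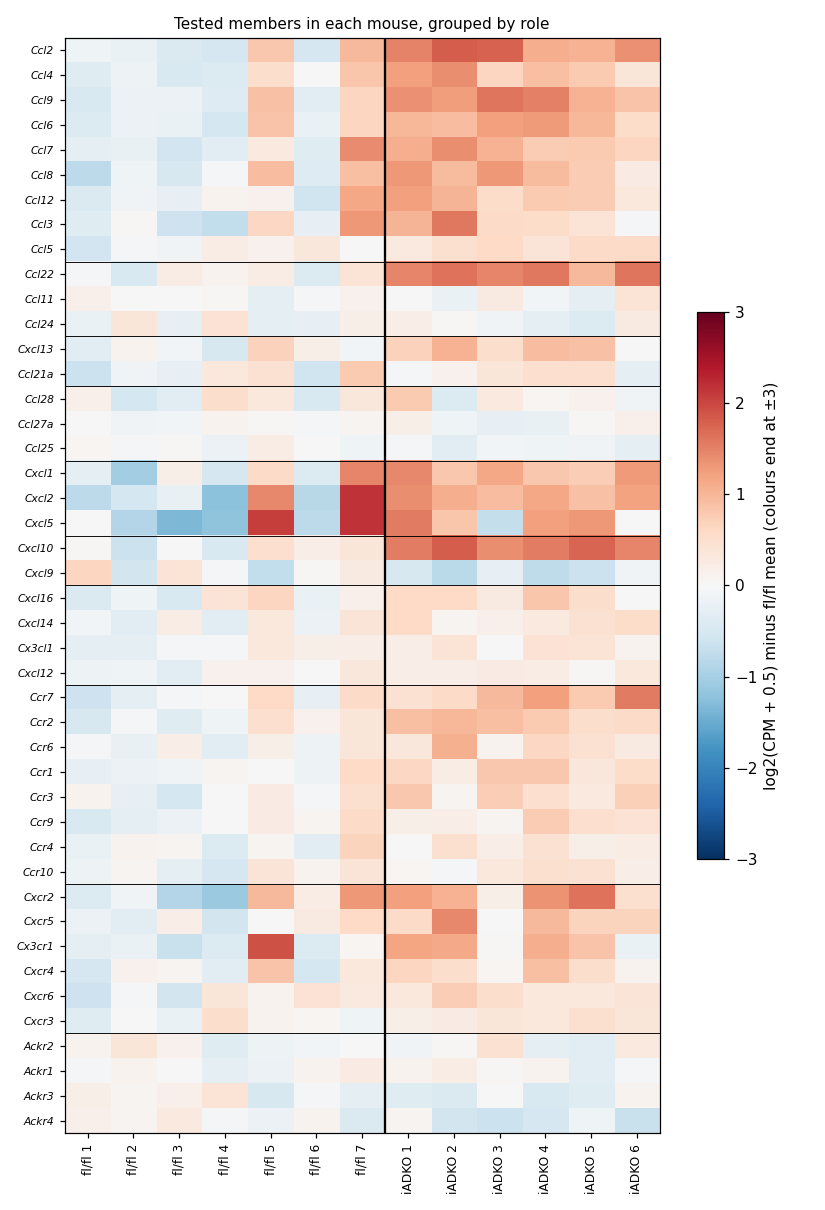
Tested members (rows, grouped by role with lines between roles) in each mouse (columns, fl/fl left of the vertical line), coloured by log2(CPM + 0.5) minus the fl/fl mean of that gene. Control mice 5 and 7 are red for Ccl2, Ccl6, Ccl8, Ccl9, Cxcl2 and Cxcl5, whereas Cxcl10 and Ccl22 are red in every iADKO column and in no fl/fl column strongly so.

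None of the 7 tested epithelial attractants and other CXC and CX3C ligands passed the test by edgeR or DESeq2. Of the 7, 3 (Cx3cl1, Cxcl14 and Cxcl16) had an unadjusted p under 0.05, a share near the 42.6% of all genes. Cxcl12, a constitutive product of stromal cells that retains leukocytes through Cxcr4, was the ligand with the most counts, at 340 to 546 CPM in fl/fl and 436 to 530 CPM in iADKO. Its log2 fold change was 0.19 ± 0.097 (adjusted p = 0.158). Its share of the summed ligand CPM was 41.6% ± 4.81 (SD, n = 7) in fl/fl and 32.3% ± 3.54 (SD, n = 6) in iADKO. Cxcl14, Cx3cl1, Ccl25, Ccl27a and Ccl28 had log2 fold changes from -0.18 to 0.36, and none passed. Cxcr4 was at 10.4 to 27.6 CPM in fl/fl and 15.8 to 28.7 CPM in iADKO (0.43 ± 0.23; adjusted p = 0.162). Cx3cr1, a receptor of patrolling monocytes and resident macrophages, was at 43.8 CPM in fl/fl mouse 5 and at 6.93 to 11.9 CPM in the other 6 controls, against 9.77 to 26.6 CPM in iADKO. With all mice its log2 fold change was 0.50 ± 0.45 (adjusted p = 0.425), and without fl/fl mouse 5 it was 1.13 with an adjusted p of 0.00338.

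Among the atypical receptors, 0 of 4 rose or fell by edgeR and 1, Ackr4, had an unadjusted p under 0.05, with log2 fold changes from -0.43 to 0.03, whereas all 15 tested conventional receptors had values above 0, from 0.26 to 1.07, and 6 of them rose. No test compared the receptor classes. Ackr3, a scavenger of Cxcl12, was at 39.7 to 73.7 CPM in fl/fl and 40.4 to 59.6 CPM in iADKO (-0.27 ± 0.14; adjusted p = 0.154). Ackr4, a scavenger of Ccl19, Ccl21 and Ccl25, was at 3.72 to 6.53 CPM in fl/fl and 3.09 to 5.60 CPM in iADKO (-0.43 ± 0.17; adjusted p = 0.0597 by edgeR, 0.0311 by DESeq2). Acad11 overlaps 23.0% of its transcript on the opposite strand. Ackr1 of venules and Ackr2 of lymphatic vessels had log2 fold changes of 0.01 ± 0.12 and 0.03 ± 0.16. The endothelial markers Kdr and Cdh5 were lower by -0.48 and -0.29, 2 of 5, and the lymphatic endothelial list had 0 of 4 called and 0 at an unadjusted p of 0.05. In the mural list Cspg4 alone was called, with the lower direction (-0.87), and 3 of 5 had an unadjusted p under 0.05. The others of these, Myh11 and Acta2, had the higher direction (0.99 and 0.62).

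Compared per kb of canonical transcript, over all 13 mice, the 5 most abundant ligands were Ccl6, Ccl8, Cxcl12, Ccl9 and Ccl11, from 224 to 52.5 CPM per kb. Ccl6 was at 159 ± 65.2 (SD, n = 7) CPM per kb in fl/fl and 301 ± 50.9 (SD, n = 6) in iADKO, and Ccl8 was next in both groups at 76.4 ± 38.2 and 136 ± 34.3. In fl/fl, Ccl8 and Cxcl12 (76.3 ± 12.1) lay within each other's spread. The 4 most abundant receptors were Ackr3, Ccr2, Cxcr4 and Ccr1, from 17.0 to 7.42 CPM per kb. Ackr3 led in fl/fl at 18.4 ± 3.68 CPM per kb against 8.79 ± 2.21 for Ccr2, and in iADKO the values were 15.3 ± 2.63 and 14.8 ± 1.90, within their spread.

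**Figure D5:**
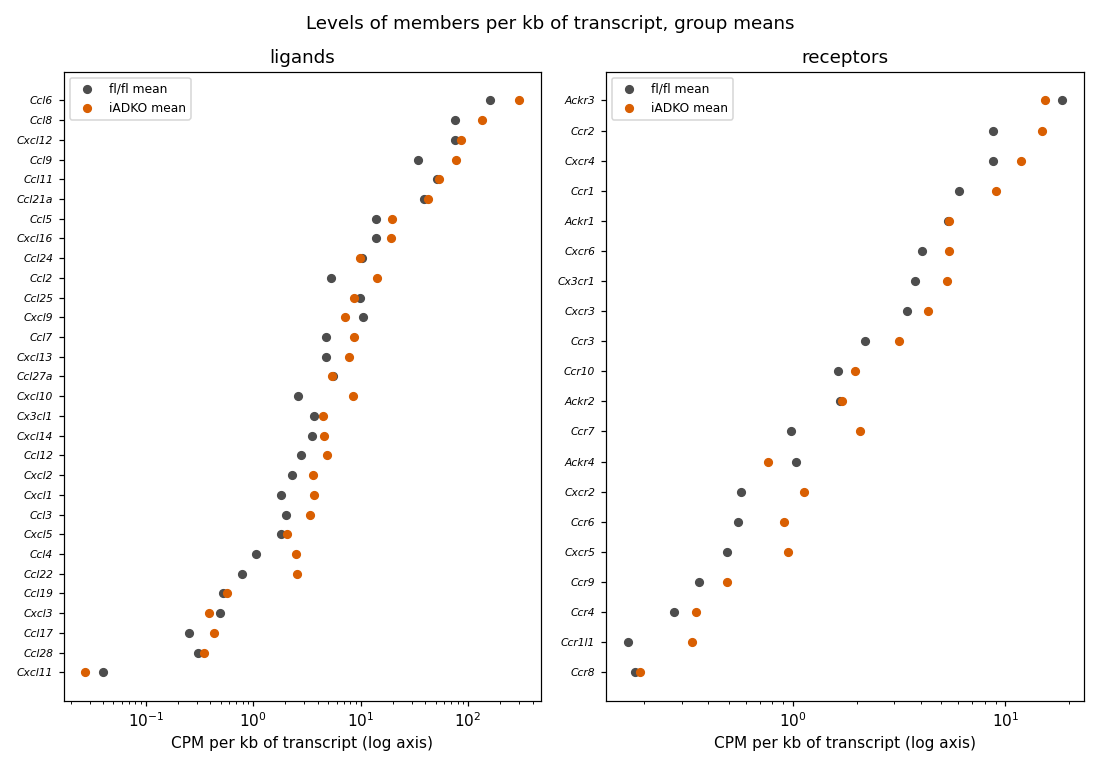
Group mean CPM per kb of canonical transcript for ligands (left) and receptors (right), on log axes, ordered by the mean over all mice; grey points are fl/fl means (n = 7), orange points iADKO means (n = 6), and the spread between mice is not drawn. Ccl6 heads the ligands at 224 CPM per kb over all mice, Ackr3 heads the receptors at 17.0, and Ccr2 and Ackr3 nearly coincide in iADKO.

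By genomic position, 32 of the 51 members lie in 8 clusters, taking members up to 1000000 bases apart as 1 cluster. Over all genes tested 14.1% were called higher, which is the background for each cluster. On chromosome 11, the cluster at chr11:83416602-83555509 holds Ccl5, Ccl9, Ccl6, Ccl3 and Ccl4, of which all but Ccl3 rose. Of these, Ccl4 entered the test only through the iADKO group. The cluster at chr11:81926397-82007625 holds Ccl2, Ccl7, Ccl11, Ccl12 and Ccl8, of which Ccl2 rose, Ccl7, Ccl12 and Ccl8 had adjusted p of 0.0557, 0.0557 and 0.0504, and Ccl11 had a log2 fold change of 0.04. The receptor cluster at chr9:123507181-123947736 holds 7 members, and 3 of its 6 tested members, Ccr1, Ccr3 and Ccr2, rose. None of the 3 tested members rose in the Cxcr2 ligand cluster at chr5:90907186-91053797.

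Further genes of the pathway lay outside the symbol rule, in lists chosen with earlier results of these data known. The counts below describe those lists and are not a test of them. Of 10 other chemokine-related genes, 6 rose and 1 fell, beside 14.1% and 16.3% of all genes. Xcl1, a chemokine of T and NK cells, was at 0.165 to 0.607 CPM in fl/fl with a median of 0.347 and 0.526 to 1.45 CPM in iADKO. It rose by 1.12 ± 0.32 (adjusted p = 0.0184). Its fl/fl median lay under the filter's level of 0.513 CPM, so it entered the test only through the group where it was high. Pf4, a platelet and macrophage chemokine, rose by 0.61 ± 0.11 (adjusted p = 0.00151). Cmklr1, the chemerin receptor, was at 248 to 425 CPM in fl/fl and 156 to 197 CPM in iADKO (-0.79 ± 0.11; adjusted p = 0.000416). Of 22 G protein and arrestin genes downstream of the receptors, 9 rose and 1 fell, against the same background. Rgs1, a regulator that ends G protein signalling in leukocytes, went from 1.38 to 5.87 CPM in fl/fl to 6.69 to 13.4 CPM in iADKO, without overlap, and rose by 2.00 ± 0.32 (adjusted p = 0.000841). Pik3r5, a PI3K-gamma subunit, and Rgs18 rose by 0.95 ± 0.27 and 0.66 ± 0.13. Of 27 leukocyte migration effectors, 16 rose and 0 fell, among them Itgb2 (0.97 ± 0.30), the shared chain of the leukocyte integrins, and Dock2 (0.84 ± 0.20), an activator of Rac in leukocytes. The median log2 fold changes of the 3 lists were 0.41, 0.14 and 0.44, beside 0.03 over all genes. With the series of animal numbers as a block, 11 of these genes were called higher instead of 31, and 1 lower instead of 2. The part of leukocyte number in these lists was not tested.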

How the data were processed

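Bulk RNA-Seq of pmWAT from 13 female mice was analyzed. The authors deposited raw counts per gene; per the labels, reads were aligned with STAR 2.7.11a to mm39 after FastQC 0.12.1. The counting tool, annotation and strand setting are not given in the sources used here. The authors also deposited log2 values from DESeq2's rlog, used in 1 alternative. Genotypes came from the labels, and members and lists were chosen with earlier results of these data known.

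In R 4.3.3, edgeR 4.0.16 (filterByExpr, TMM, robust quasi-likelihood F test, Benjamini-Hochberg over 16753 genes) was the main test; SE are the absolute log2 fold change over the root of F. DESeq2 1.42.0 and limma 3.58.1 were alternatives. CPM are TMM-normalized. Permutation used scipy 1.17.1. The test was checked on simulated counts. Named were all members past the threshold, the 5 most abundant ligands and receptors per kb, Lmna, Ccl2, and the 3 largest changes per pathway or marker list; others were added after their values were seen, and some single-gene values are not reported here. Shared transcript sequence was sought with blastn 2.17.0 (95% identity over 100 bases). Each library is 1 mouse; depth varied little, and errors are the spread between mice.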

Additional observations from a re-analysis of the deposited data

Results flagged for a closer look

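In 90 groups of mice (each of the 45 tested members in each genotype), 3 had a mouse far from the others by Dixon's test on log2 CPM, which flags about 1 group in 20 by chance. Cx3cr1 was at 43.8 CPM in fl/fl mouse 5, and the next highest control was at 11.9 CPM. Ccr1 was at 25.7 CPM in fl/fl mouse 7, with the next control at 18.0 CPM. Ccl22 was at 3.82 CPM in iADKO mouse 5, with the next lowest iADKO mouse at 5.58 CPM.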

How the results depend on the processing

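Leaving out each mouse in turn gave 12 to 24 members higher and 0 to 3 lower. Over all genes the share called higher in those fits was 10.6% to 19.9%. Without fl/fl mouse 7, 24 members were higher, and without fl/fl mouse 5, 21 were. The difference of the Cxcl10 to Cxcl9 log2 ratio stayed between 2.16 and 2.498. With the replicate block (fl/fl mouse 7 has no partner and was left out) 25 members were higher and 1 lower. In that fit 14.2% of all genes were called higher. The mice share only a number, since same-numbered residuals correlated by -0.0265 to 0.217 and 3 of 6 fl/fl mice matched their own number best. DESeq2 called 2 members lower and limma on rlog values 1. With the macrophage score as a covariate 2 were higher (0.68% of all genes), and the direction turned for many members that were not called. Among these, the log2 fold changes of Ackr3, Ccl8 and Cxcr4 turned to 0.21, -0.15 and -0.29. Those of Cxcl9, Ccl3, Cxcl5 and Cx3cr1 turned to 0.04, -0.51, -1.59 and -0.79. The log2 fold change of Ccl11 ran from -0.05394 to 0.09757 when 1 mouse was left out, below 0 without fl/fl mouse 5, iADKO mouse 3 or iADKO mouse 6. With the series of animal numbers as a block, 12 members were higher (11 of the 14; 4.68% of all genes), and pathway genes called higher went from 31 to 11 and those lower from 2 to 1; without a filter 1 pathway gene was lower. The causes were not tested. At the remaining settings the counts stayed within 1.5 times those reported. Members under about 0.5 CPM could not be tested at this depth.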
